A study of Mus musculus with 16 samples.

Results

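The S100 proteins described here are 8 small calcium-binding proteins whose genes carried reads in cells of mouse epididymal white fat: S100a1, S100a4, S100a6, S100a10, S100a11, S100a13, S100a16 and S100b. They were taken by symbol from the 18 S100 genes in a table of 27179 gene rows, with earlier results of these data known. All 8 passed the filter on low values that left 15024 genes for testing, which given that choice is no finding. The libraries came from C57BL/6 mice at postnatal day 7, in which Pdgfrb+ cells were isolated by flow cytometry and divided into adipocyte precursor cells (APCs), fibro-inflammatory progenitors (FIPs), mesothelial-like cells (MLCs) and smooth muscle cells (SMCs), with 4 libraries of each. No mutation, transgene or treatment is given for any population. The labels do not say whether the 4 libraries of a population came from separate animals. The p-values therefore reflect how far libraries of the same population spread, which can be technical. In the main test this spread is pooled over all 4 populations.

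S100 proteins are made of paired EF-hand motifs, helix-loop-helix folds that hold a calcium ion, and most work as dimers. When calcium binds, a hydrophobic face opens and takes up a target such as an annexin or a myosin heavy chain. S100a10 is the exception, since its EF-hands no longer bind calcium and it stays in a form that binds annexin A2. In mesenchymal cells S100a4 and S100a6 are known from motile and activated fibroblasts, and S100b is best known from glia, although adipocytes contain it too.

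The genes sit in a cluster. Of the 8 members, 7 lie on mouse chromosome 3 (GRCm38, RefSeq gene models), where the annotation holds 15 S100 genes, and S100b lies alone on chromosome 10. The first block of 5 members spans 103 kb, in the order S100a1 (Entrez gene 20193, chr3:90511034-90514330), S100a13 (20196, chr3:90514233-90524581), S100a16 (67860, chr3:90537254-90543151), S100a4 (20198, chr3:90603770-90606045) and S100a6 (20200, chr3:90612894-90614414). After a gap of 2.91 Mb come S100a11 (20195, chr3:93520496-93526288) and S100a10 (20194, chr3:93555117-93564645), 28.8 kb apart. S100b (20203) occupies chr10:76253836-76261319. S100a1 runs on the minus strand and the other 7 members on the plus strand, and S100a1 and S100a13 overlap head to head by 98 bases.

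The 250 bases before the start of 4 members are shown, those whose levels moved furthest between populations or lead the members per length among genes with an entry (RefSeq promoters, build GRCm38.p6, plus strand, 5′ to 3′). The table held a promoter for 7 of the 8 members. Capitals mark matches, on either strand, to the TATA box (searched as TATAAA), the CCAAT box, the GC box (as GGGCGG), the AP-1 motif (as TGANTCA) or the TEAD motif (as GGAATG), none of which overlaps another in these windows.
S100a4, chr3:90603520-90603769: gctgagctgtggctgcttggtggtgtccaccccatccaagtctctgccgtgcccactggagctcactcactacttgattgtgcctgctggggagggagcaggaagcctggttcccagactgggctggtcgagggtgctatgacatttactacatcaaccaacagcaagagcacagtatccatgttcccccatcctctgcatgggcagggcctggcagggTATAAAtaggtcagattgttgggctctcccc
S100a6, chr3:90612644-90612893: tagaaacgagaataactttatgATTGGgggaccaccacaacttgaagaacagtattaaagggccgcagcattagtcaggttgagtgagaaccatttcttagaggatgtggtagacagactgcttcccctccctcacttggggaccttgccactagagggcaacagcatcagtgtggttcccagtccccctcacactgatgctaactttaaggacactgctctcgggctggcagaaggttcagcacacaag
S100a11, chr3:93520246-93520495: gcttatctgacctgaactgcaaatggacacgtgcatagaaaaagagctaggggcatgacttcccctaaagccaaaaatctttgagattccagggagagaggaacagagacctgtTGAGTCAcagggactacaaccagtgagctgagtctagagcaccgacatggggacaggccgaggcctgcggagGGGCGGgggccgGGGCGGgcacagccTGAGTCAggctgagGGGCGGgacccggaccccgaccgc
S100b, chr10:76253586-76253835: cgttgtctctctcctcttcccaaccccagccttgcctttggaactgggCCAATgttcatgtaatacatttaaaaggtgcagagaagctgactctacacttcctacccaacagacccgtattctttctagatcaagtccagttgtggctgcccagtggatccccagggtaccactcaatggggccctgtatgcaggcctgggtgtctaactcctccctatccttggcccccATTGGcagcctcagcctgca
The 4 windows differ in what they hold. S100a4 has a TATA box 31 bases before its start, a match that 12.4% of 32817 promoter windows of this length contain. The S100a11 window has no TATA box but holds AP-1 motifs at 136 and 38 bases and GC boxes at 64, 52 and 24 bases before the start; an AP-1 motif was present in 6.75% of all windows and a GC box in 32.7%. S100a6 has a single CCAAT box, read on the other strand, 228 bases before its start, and S100b has a pair of them at 202 and 20 bases, against 33.8% of all windows with at least 1. None of the members' windows contained the TEAD motif, which 12.6% of windows hold. The windows of S100a1 and S100a13 overlap by 104 bases and contained none of the motifs. The S100a13 window ends at chr3:90514434, inside the gene model given above, so it uses another start than that model. Of the 2 windows listed for S100a16, the downstream one held an AP-1 motif and a GC box. A match says only that these letters are present, and binding was not measured.

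The libraries held 9.20 to 27.5 M reads, with SMCs replicate 3 and APCs replicate 4 (11.2 M) the shallowest. Values below are the deposited normalised counts, read counts divided by 1 factor per library, and log2 differences are on the log2(value + 1) scale. A gene was called when limma's moderated test gave a Benjamini-Hochberg adjusted p under 0.05 over all 15024 genes and the difference was at least 2-fold. The sum of 12 mesothelial markers was 139562 to 144068 in MLCs, 11055 to 16589 in SMCs and at most 5186 in APCs and FIPs. The sum of 10 contractile markers, none at 0 in any library, was 14552 to 19629 in SMCs, 12456 to 13020 in MLCs, 10383 to 13560 in APCs and 6912 to 7504 in FIPs. APCs replicate 4 stood apart from the other APCs in smooth muscle genes: its Acta2, smooth muscle actin, was 2388 against 156 to 221, and it was the highest of the 4 APCs libraries for 8 of 8 members, where it was the highest for 36.5% of all tested genes. Differences whose call, direction or adjusted p limit depends on it are given with and without it, and its part in the others was not tested otherwise. In these bulk samples, fewer cells of a type and less RNA per cell cannot be told apart.

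Per kilobase of exon, S100a10, S100a11 and S100a6 were the leading 3 members in every population. S100a10 stood at 9955 ± 393 normalised counts per kb in FIPs, 9723 ± 728 in MLCs, 5384 ± 606 in SMCs and 5268 ± 908 in APCs (SD, n = 4). S100a11 followed at 9692 ± 973, 7359 ± 310, 5006 ± 203 and 4974 ± 532 per kb in the same order. Both lay at or above the 99.0th percentile of 13688 genes with an exonic length in all 4 populations. S100a6, which binds calcyclin-binding protein and annexins, reached 4778 ± 286, 6790 ± 492, 5468 ± 538 and 2429 ± 664 per kb, between the 97.6th and 99.5th percentile, and ranked above S100a10 by its mean in SMCs, where the libraries' spreads overlap. S100a16 (867 to 1447 per kb), S100a1 (524 to 911) and S100a13 (372 to 750) formed a middle tier by population mean. S100a4 ranged from 60.1 ± 4.91 per kb in FIPs to 1292 ± 833 in SMCs. S100b was the lowest member in APCs, MLCs and SMCs and second lowest in FIPs, at 14.1 ± 2.10 per kb in MLCs and 87.8 ± 17.3 in APCs. Summed, the 8 members took 0.109% ± 0.00718 of all normalised counts in MLCs, 0.0867% ± 0.000934 in FIPs, 0.0706% ± 0.00483 in SMCs and 0.0579% ± 0.010 in APCs.

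**Figure D1:**
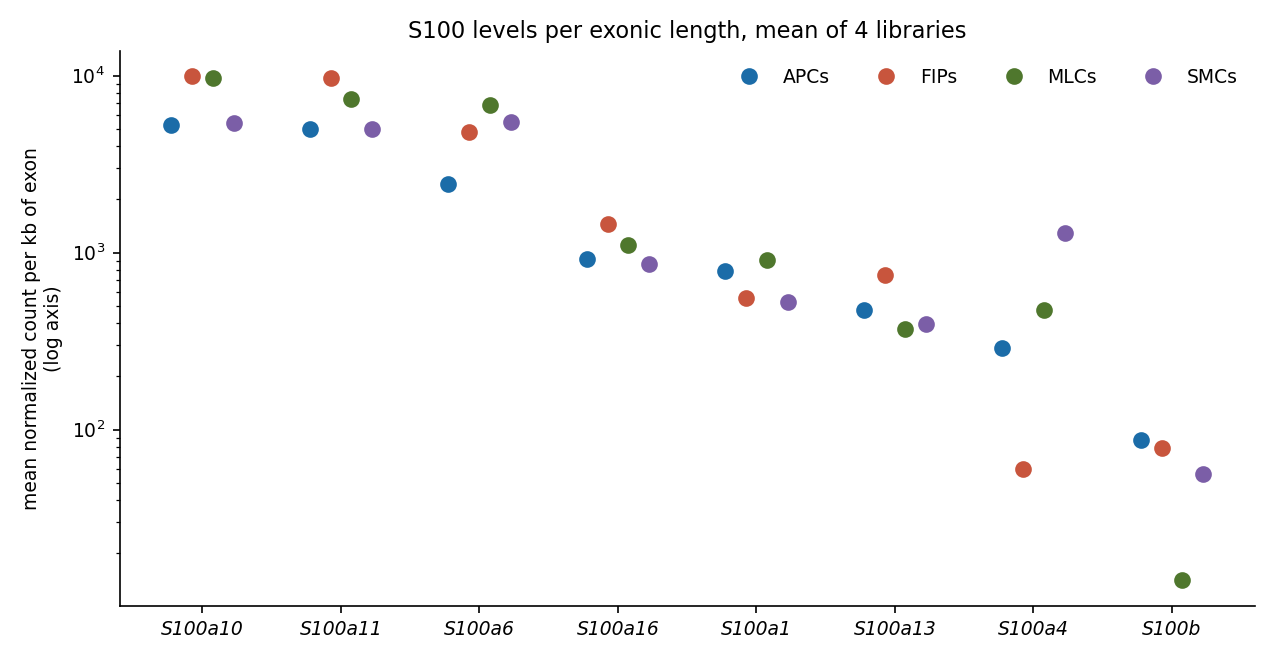
Mean normalised count per kilobase of exon over 4 libraries (log axis, no error bars) of the 8 S100 members, with 1 colour per population. S100a10, S100a11 and S100a6 lie above the other members in all 4 populations, and S100a4 spans the widest range between populations.

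Across the 6 pairs of populations and 8 members, 11 of 48 differences passed both limits, 25 passed the adjusted p but stayed under 2-fold, and 12 passed neither. Only 4 members were called in any pair, S100a4, S100a6, S100a13 and S100b; S100a1, S100a10, S100a11 and S100a16 were called in none, although each passed the adjusted p in at least 4 pairs. By pair, 1 of 8 members was called between APCs and FIPs against 10.4% of all tested genes, 3 between MLCs and APCs against 29.6%, and 3 between MLCs and FIPs against 31.1%. SMCs against APCs gave 2 members and 17.2% of genes, SMCs against FIPs 1 and 17.9%, and MLCs against SMCs 1 and 27.9%. By adjusted p alone the counts were 6 of 8 (41.1% of genes), 7 (67.5%), 7 (67.2%), 4 (56.2%), 6 (54.0%) and 6 (65.6%) in the same order. Read against these shares, the counts are no result about the 8 genes as a set, and the results below are about single members. Comparisons that share a population share its libraries.

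Values on either side of the 2-fold limit were close. The smallest called differences were S100a13 between MLCs and FIPs, at -1.003 on the log2 scale, and S100a6 between APCs and FIPs, at -1.01. Just under the limit came S100a11 between APCs and FIPs (-0.96) and between SMCs and FIPs (-0.95), and S100a10 between APCs and FIPs (-0.93). The call therefore separates S100a6 from S100a10 and S100a11 where the sizes hardly differ.

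**Figure D2:**
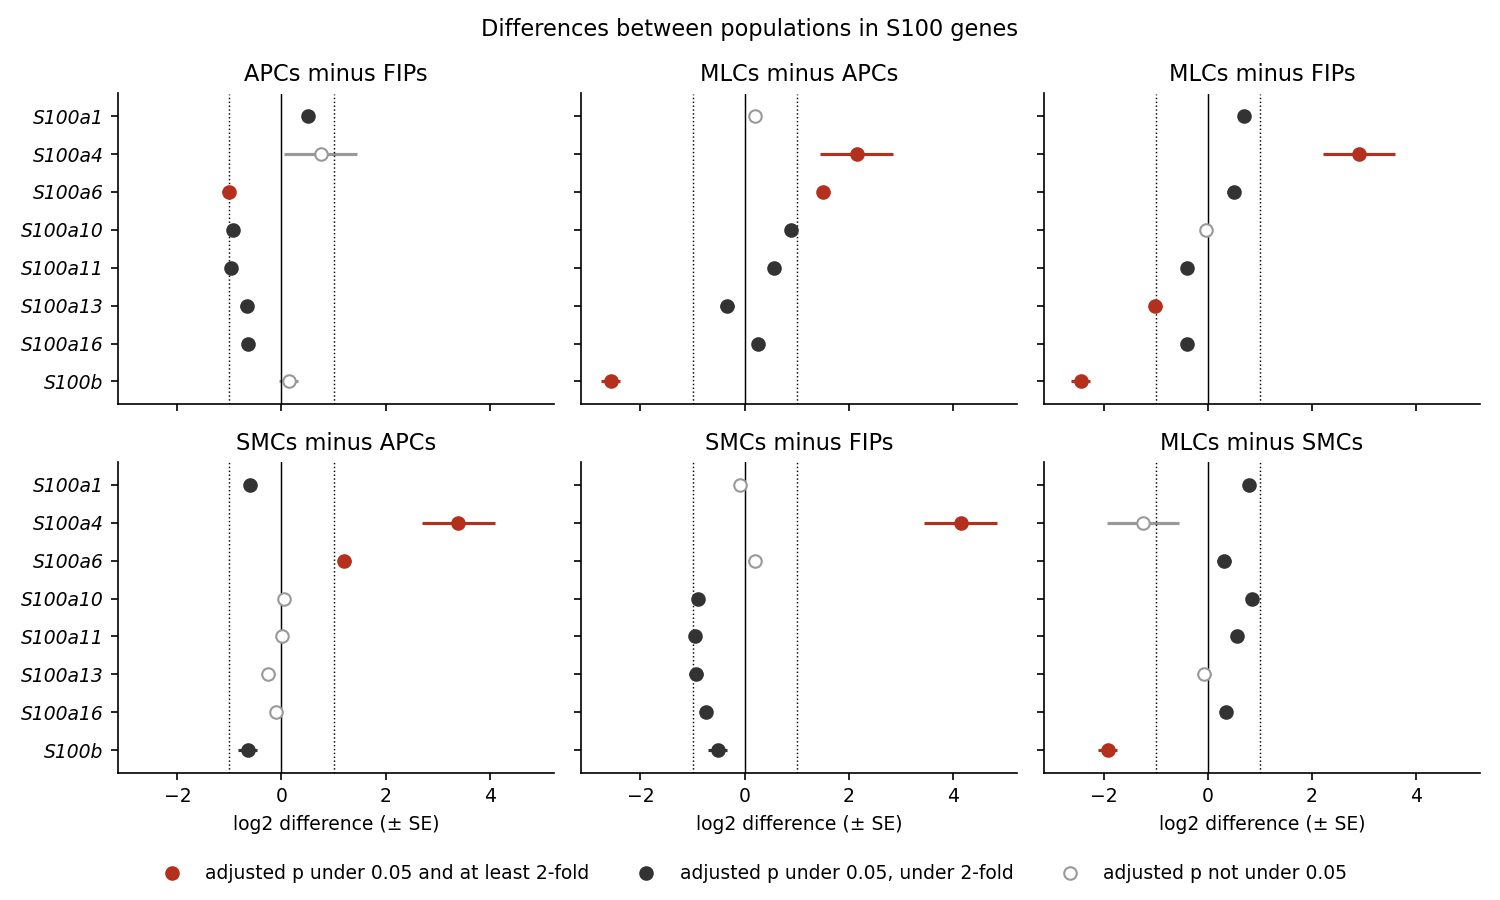
Log2 difference between populations (first named minus second) of each member with its standard error, in the 6 pairs. Red points passed both limits, black points the adjusted p alone and open points neither, and dotted lines mark a 2-fold difference. S100a4 and S100b have the widest differences, up to 4.15 and down to -2.57, and S100a4 the widest errors.

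S100a10, S100a11 and S100a16 shared a pattern in which FIPs were at or near the top. S100a10, the light chain of the annexin A2 complex that brings plasminogen and tissue plasminogen activator to the cell surface, measured 8308, 8036, 7552 and 8040 in the 4 FIPs libraries. It measured 6962, 8303, 7879 and 8046 in MLCs, 3699, 4782, 4174 and 4617 in SMCs and 3760, 3613, 4305 and 5222 in APCs. The libraries thus fell into a high pair of populations and a low pair with no overlap between them, and within each pair the libraries overlapped. FIPs exceeded APCs by 0.93 ± 0.10 (SE; adjusted p = 2.4e-07) and SMCs by 0.89 (2.8e-07), and MLCs exceeded them by 0.90 (1.2e-07) and 0.86 (2.6e-07). MLCs against FIPs gave -0.04 ± 0.10 (adjusted p = 0.759), which turned to 0.30 when libraries were scaled to equal totals (adjusted p = 0.0129), a scaling that moved the median of all genes by 0.33 in this pair. Without APCs replicate 4 the difference between APCs and FIPs was -1.04 and was called, as was that between MLCs and APCs (1.003).

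S100a11, which binds annexin A1 and takes part in membrane repair and keratinocyte growth control, was highest in FIPs, at 4820, 4474, 5651 and 4866. It was 3567, 3879, 3696 and 3901 in MLCs, 2672, 2618, 2489 and 2453 in SMCs and 2355, 2283, 2664 and 2865 in APCs. All FIPs libraries lay above all MLCs libraries, these lay above all APCs and SMCs libraries, and APCs and SMCs overlapped. FIPs exceeded MLCs by 0.39 ± 0.07 (adjusted p = 1.1e-04), APCs by 0.96 (3.2e-09) and SMCs by 0.95 (2.3e-09), while SMCs minus APCs was 0.01 ± 0.07 (adjusted p = 0.881). Without APCs replicate 4, APCs minus FIPs was -1.02 (adjusted p = 8.1e-10) and was called, and it was also called without FIPs replicate 2 (-1.01). A processed pseudogene, S100a11-ps, was listed at 1.73 to 14.7. How the counting treated reads shared with a near-identical copy is not given in the sources used here, and their effect on the S100a11 value is not known.

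S100a16, a widely expressed member whose overexpression is known to favour fat cell formation in culture, varied least of the 8. It measured 2074, 2062, 2202 and 1993 in FIPs, 1398, 1741, 1651 and 1572 in MLCs, 1244, 1234, 1327 and 1522 in APCs and 1187, 1317, 1089 and 1396 in SMCs. FIPs lay above every library of the other populations, by 0.39 ± 0.08 over MLCs (adjusted p = 3.6e-04), 0.65 over APCs (3.2e-06) and 0.74 over SMCs (3.6e-07). MLCs exceeded APCs by 0.26 (adjusted p = 0.0107) with overlapping libraries, and SMCs minus APCs was -0.10 (0.343). Its population means spanned 1.67-fold. With equal totals the differences of S100a11 and S100a16 between MLCs and FIPs came to -0.06 each (adjusted p = 0.461 and 0.552).

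**Figure D3:**
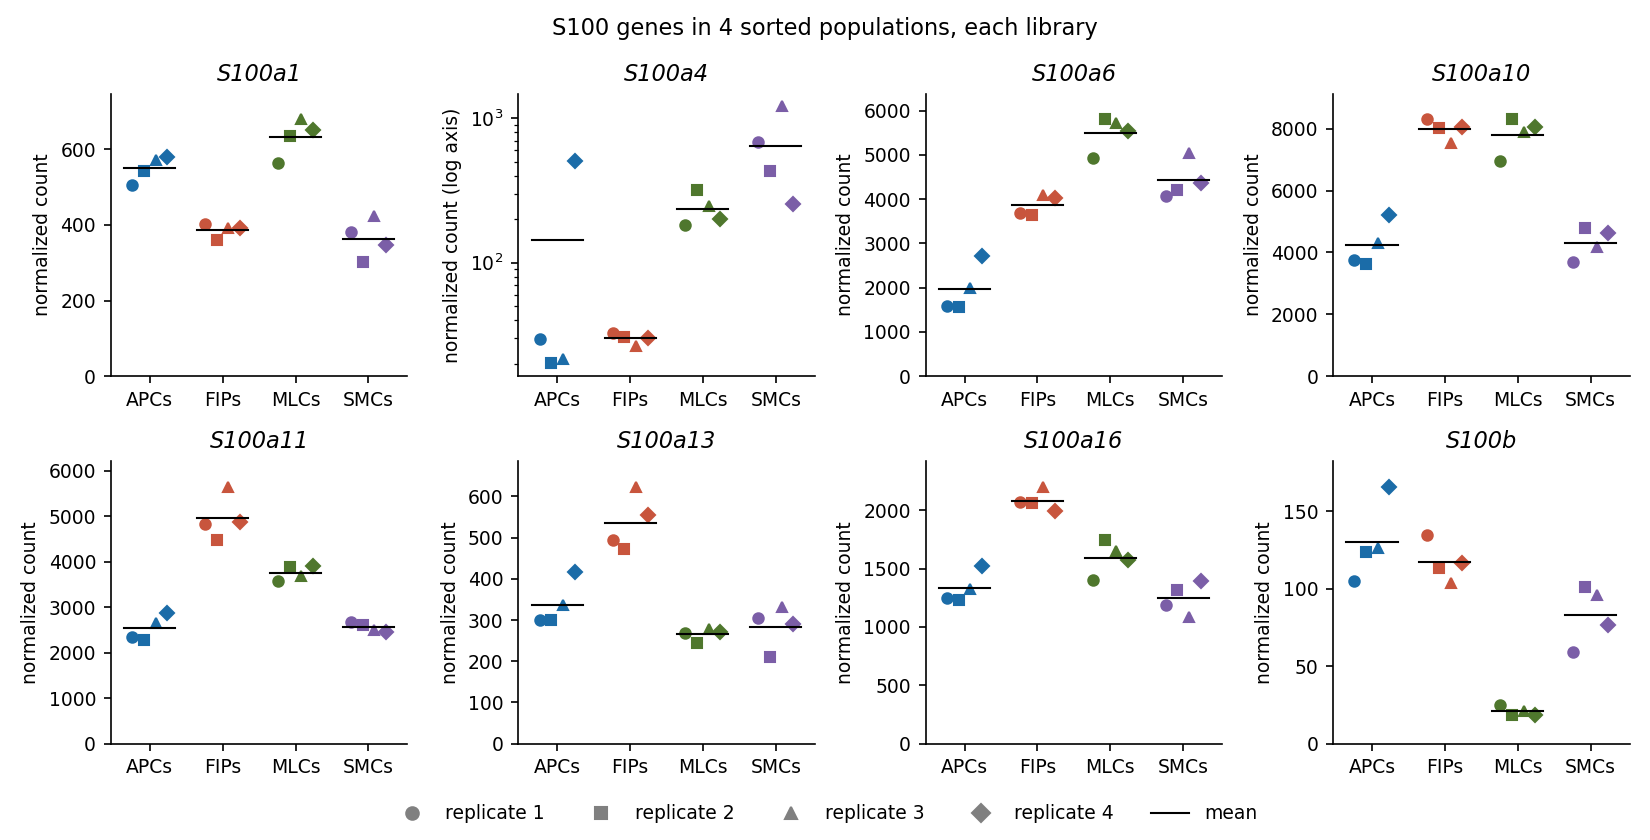
Normalised counts of each member in the 16 libraries, by population, on linear axes from 0 except for S100a4 (log axis). Each point is a library, its shape the replicate number, and lines are means. S100a10 separates FIPs and MLCs from APCs and SMCs, S100b is lowest in MLCs, and 1 APCs library at 507 stands far above the other APCs for S100a4.

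Binding partners of these proteins differed from them in order or in the size of their spread. Anxa2, annexin A2, measured 20705 to 21514 in MLCs, 11672 to 13058 in FIPs, 9096 to 9822 in SMCs and 6949 to 8530 in APCs, so its highest population was MLCs and not FIPs. Within each library the log2 ratio of S100a10 to Anxa2 was -0.62 ± 0.11 in FIPs, -0.87 ± 0.15 in APCs, -1.15 ± 0.12 in SMCs and -1.44 ± 0.10 in MLCs (SD, n = 4). MLCs were below each of the other populations, by -0.82 against FIPs, -0.57 against APCs and -0.29 against SMCs, and SMCs below FIPs by -0.53 (exact two-sided permutation test, p = 0.0286, the smallest that 4 against 4 allows; adjusted p = 0.049 over 24 tests in each of the 4 cases). Whether that smallest p passes after adjustment depends on how many of the 24 tests reach it, and these tests share libraries. APCs minus FIPs was -0.25 (exact permutation test, adjusted p = 0.0857) and SMCs minus APCs -0.28 (adjusted p = 0.121), both with overlapping libraries.

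Anxa1, annexin A1, was highest in FIPs and then in MLCs, as S100a11 was, but spread wider, from 4184 to 5760 in SMCs and 5539 to 7365 in APCs to 10394 to 12979 in MLCs and 16403 to 18900 in FIPs. The log2 ratio of S100a11 to Anxa1 was therefore lowest where S100a11 was highest, at -1.83 ± 0.11 in FIPs, against -1.66 ± 0.11 in MLCs, -1.28 ± 0.08 in APCs and -0.85 ± 0.25 in SMCs. APCs exceeded FIPs by 0.55 and SMCs exceeded FIPs by 0.98, and MLCs were below APCs by -0.38 and below SMCs by -0.81 (exact permutation test, adjusted p = 0.049 each). MLCs minus FIPs was 0.18 (exact permutation test, adjusted p = 0.144) and SMCs minus APCs 0.43 (0.0857).

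**Figure D4:**
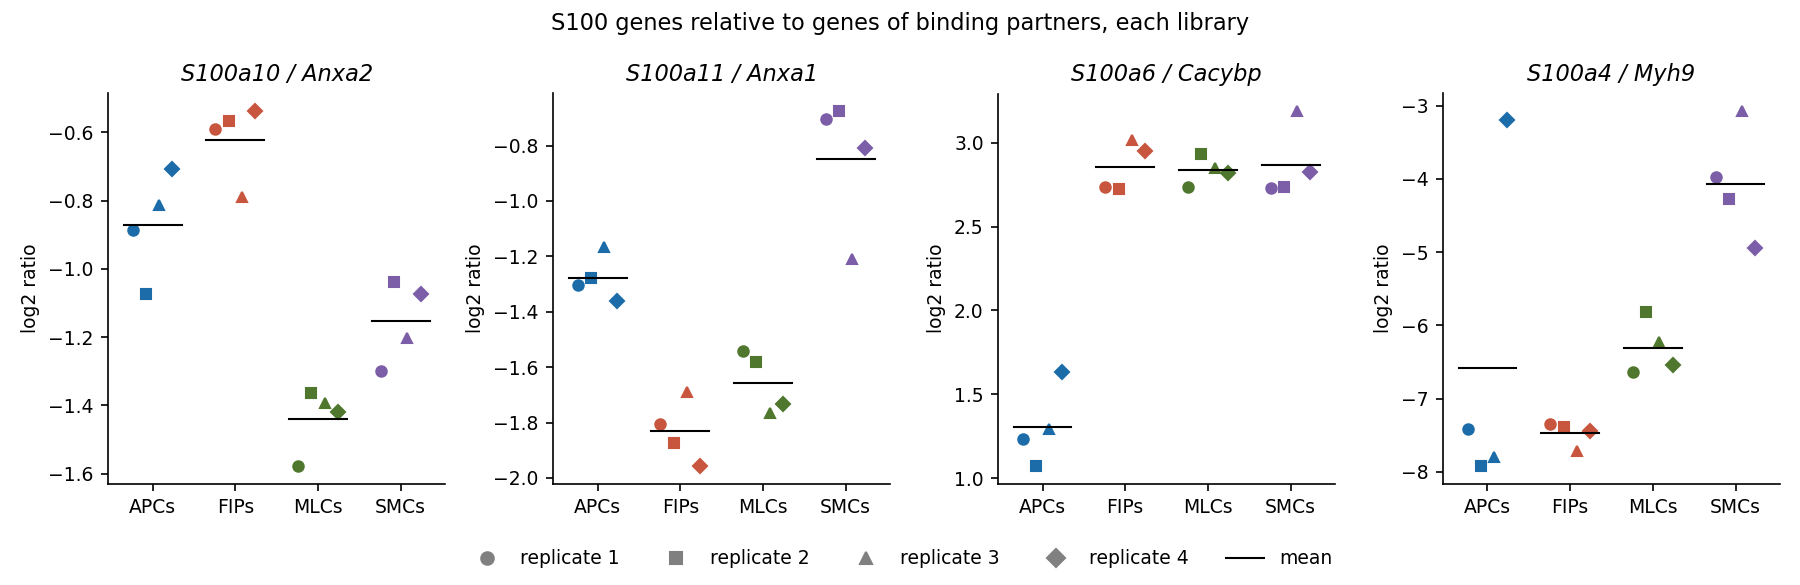
Log2 ratio of 4 S100 members to a binding partner within each library, by population, with each library as a point, its shape the replicate number, and the mean as a line. For S100a6 to Cacybp the APCs libraries lie between 1.07 and 1.63 and all other libraries between 2.73 and 3.19.

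S100a6 set APCs apart. It measured 1577, 1571, 2000 and 2713 in APCs, 3689, 3645, 4099 and 4027 in FIPs, 4066, 4206, 5049 and 4371 in SMCs and 4920, 5806, 5712 and 5535 in MLCs. No APCs library reached the lowest library of another population, and APCs replicate 4 was the nearest to them. MLCs exceeded APCs by 1.52 ± 0.13 (SE; adjusted p = 2.0e-09), SMCs exceeded APCs by 1.202 (1.6e-07) and FIPs by 1.01 (2.1e-06), all 3 called; without APCs replicate 4 these grew to 1.68, 1.37 and, for APCs minus FIPs, -1.18. The call between APCs and FIPs was lost under every other scaling tried, at -0.76 with equal totals, -0.88 with quantile normalization and -0.997 with TMM factors, with an adjusted p of at most 4.0e-05 in each. It was also lost without APCs replicate 1 (-0.92), APCs replicate 2 (-0.92), FIPs replicate 3 (-0.98) or FIPs replicate 4 (-0.99). MLCs exceeded FIPs by 0.51 (adjusted p = 0.0015) and SMCs by 0.31 (0.0341), and SMCs minus FIPs was 0.19 (0.208).

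Cacybp, the calcyclin-binding protein through which S100a6 meets a ubiquitin ligase complex, took another order: 671 to 875 in APCs, 739 to 791 in MLCs, 553 to 630 in SMCs and 506 to 552 in FIPs. The log2 ratio of S100a6 to Cacybp was 1.31 ± 0.24 in APCs, against 2.87 ± 0.22 in SMCs, 2.86 ± 0.15 in FIPs and 2.84 ± 0.08 in MLCs. APCs differed from the other 3 by 1.55 (FIPs), 1.53 (MLCs) and 1.56 (SMCs) in size (exact permutation test, adjusted p = 0.049 each). Between the other 3 the differences were -0.02, 0.01 and -0.04 (exact permutation test, adjusted p = 0.943 each), with overlapping libraries.

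S100a4, which binds non-muscle myosin IIA and is widely used as a fibroblast marker, covered the widest range, 21.5-fold between population means. It measured 684, 429, 1206 and 253 in SMCs, 181, 318, 249 and 200 in MLCs and 32.6, 30.5, 26.7 and 29.9 in FIPs. In APCs it measured 29.6, 20.1, 21.4 and 507, so 3 libraries were near the FIPs level, with 23.7 ± 5.12 as their mean, and replicate 4 reached the SMCs range. These values rest on 248 to 650 reads in SMCs, 216 to 376 in MLCs, 28 to 33 in FIPs and 20 to 293 in APCs. SMCs exceeded FIPs by 4.15 ± 0.70 (SE; adjusted p = 5.5e-05) and MLCs exceeded FIPs by 2.91 (0.0011), with no overlap in either pair. SMCs exceeded APCs by 3.40 (adjusted p = 4.3e-04) and MLCs exceeded APCs by 2.16 (0.0106), both called although APCs replicate 4 overlapped the other population. Without that library the 2 differences were 4.49 (2.71e-09) and 3.25 (8.9e-08), and APCs minus FIPs turned from 0.75 (adjusted p = 0.423) to -0.34 (0.463). MLCs minus SMCs was -1.24 in both fits, with an adjusted p of 0.127 with the library and 0.00202 without it, and SMCs replicate 4 lay within the MLCs range. On whole reads recovered from the table, edgeR's quasi-likelihood test over 14 libraries, APCs replicate 4 among them, gave MLCs minus APCs as 0.55 (adjusted p = 0.526).

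Of 10713 other genes with a mean of at least 100, the one whose log2 profile over the 16 libraries lay nearest to S100a4 was Acta2, at a root mean square difference of 0.36, followed by Vdr, the vitamin D receptor, at 0.62 and Col8a1, a short-chain collagen, at 0.63. Acta2 measured 5235, 4170, 5858 and 2885 in SMCs, 1143, 1627, 1604 and 1338 in MLCs, 237, 258, 240 and 211 in FIPs and 221, 218, 156 and 2388 in APCs. Acta2 was picked for its nearness over these same libraries, so a shared order is part of that choice and no separate result. Both genes were highest in SMCs replicate 3, lowest among SMCs in replicate 4 and highest among APCs in replicate 4. Of the 10 contractile markers, 7 were highest of the APCs in that library, Tagln at 1463 against 194 to 318 and Cnn1 at 116 against 6.04 to 9.30 among them. Smtn (2843 against 3673 to 3989) and Des (975 against 1044 to 1250) were lowest there, and Myh11 (125) lay between the others. Its summed macrophage and myeloid list of 12 markers was the lowest of the APCs, at 600 against up to 1324. Cd68 made up 420 of it, against 623 to 1196 in the other APCs. The other markers of the list went both ways in that library. Csf1r (41.5 against 23.2 to 27.0) and Mrc1 (50.1 against 24.2 to 42.2) were highest there, and Ptprc and Adgre1, at 0, lowest. Over the populations the summed list was 2492 to 3035 in MLCs, where Csf1r made up 2014 to 2449, 877 to 1119 in SMCs and 533 to 869 in FIPs. Cd68 was 312 to 1196 over all libraries, while Ptprc, which marks blood-derived cells, stayed at or under 11.4. What these markers contribute to the S100a4 values was not tested.

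**Figure D5:**
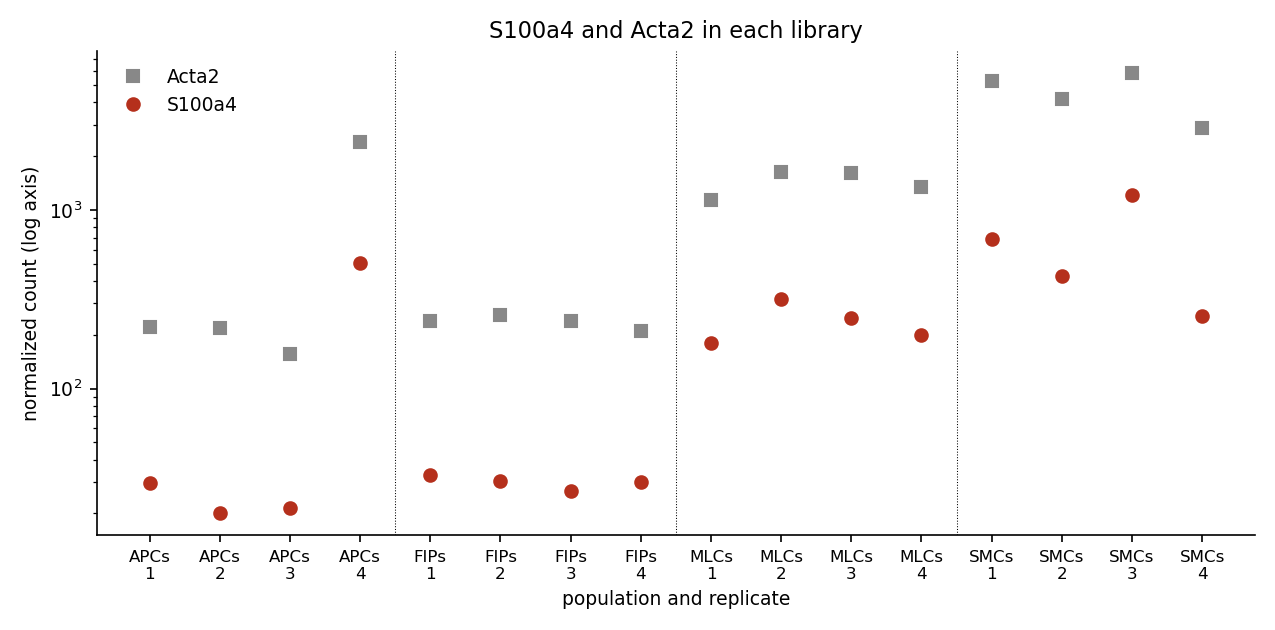
Normalised counts (log axis) of S100a4 (red circles) and Acta2 (grey squares) in each of the 16 libraries, ordered by population and replicate. In APCs replicate 4 both genes, at 507 and 2388, lie far above the other 3 APCs, which lie near the FIPs. Acta2 was picked as the nearest profile to S100a4 over these same libraries.

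Myh9, the heavy chain of non-muscle myosin IIA, was highest in MLCs (18046 to 18681), then in SMCs (7846 to 10719), FIPs (5274 to 5817) and APCs (4643 to 5229). The log2 ratio of S100a4 to Myh9 was -4.07 ± 0.78 in SMCs, -6.31 ± 0.37 in MLCs, -7.47 ± 0.17 in FIPs and -6.58 ± 2.27 in APCs. SMCs exceeded FIPs by 3.40, MLCs exceeded FIPs by 1.17, and MLCs were below SMCs by -2.24 (exact permutation test, adjusted p = 0.049 each). APCs overlapped every other population, and their differences did not pass (exact permutation test, adjusted p = 0.943, 0.943 and 0.144). Without APCs replicate 4, APCs minus FIPs was -0.24, MLCs minus APCs 1.41 and SMCs minus APCs 3.65.

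By their gene models, S100a1 and S100a13 start within 98 bases of each other on opposite strands, yet their orders across populations differed. S100a1, known from heart muscle as a regulator of the ryanodine receptor, measured 565, 634, 679 and 651 in MLCs and 505, 543, 570 and 579 in APCs, and 402, 359, 392 and 391 in FIPs and 381, 303, 423 and 347 in SMCs. MLCs and APCs both lay above FIPs and SMCs without overlap, and overlapped each other. MLCs exceeded SMCs by 0.80 ± 0.09 (SE; adjusted p = 2.2e-07) and FIPs by 0.71 (9.7e-07), APCs exceeded FIPs by 0.51 (1.5e-04) and SMCs by 0.60 (1.6e-05). MLCs minus APCs was 0.20 (adjusted p = 0.0577), or 0.23 without APCs replicate 4 (adjusted p = 0.0455), and SMCs minus FIPs was -0.10 (0.394).

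S100a13, which takes part in the release of FGF1 and interleukin 1 alpha by a route outside the secretory pathway, was highest in FIPs, at 495, 471, 623 and 555. It measured 299, 299, 335 and 417 in APCs, 304, 209, 331 and 289 in SMCs and 269, 244, 277 and 272 in MLCs. FIPs lay above all other libraries, by 0.67 ± 0.13 over APCs (SE; adjusted p = 4.0e-04), 0.93 over SMCs (7.9e-06) and 1.003 over MLCs (1.5e-06, called). That call was lost at -0.67 with equal totals, at -0.98 with a pseudocount of 8, and without FIPs replicate 3 (-0.93), FIPs replicate 4 (-0.98) or MLCs replicate 2 (-0.96), with the same direction in each. MLCs were below APCs by -0.33 (adjusted p = 0.0332), or by -0.23 without APCs replicate 4 (adjusted p = 0.125). Without SMCs replicate 3 the difference between SMCs and FIPs was -1.01 and was called. For S100a13, MLCs minus SMCs was -0.07 with overlapping libraries (limma adjusted p = 0.638). Fgf1 itself, the growth factor that leaves cells with S100a13, was 10593 to 13150 in MLCs and 743 to 1270 in SMCs. It was 1132 to 1197 in FIPs and 89.9 to 121 in APCs. The root mean square difference between the log2 profiles of S100a1 and S100a13 was 0.63, against 0.17 for the closest pair of members, S100a11 and S100a16, and 2.57 for the farthest, S100a4 and S100b. Because the strand setting of the counting is not given in the sources used here, reads from the 98 shared bases cannot be assigned to 1 of the 2 genes.

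S100b was lowest in MLCs and differed less among the other populations. It measured 105, 124, 127 and 166 in APCs, 135, 114, 104 and 117 in FIPs, 59.0, 101.4, 96.1 and 76.6 in SMCs and 25.1, 18.6, 21.4 and 18.5 in MLCs, the last from 21 to 30 reads. The MLCs libraries lay below all others, by -2.57 ± 0.19 (SE) against APCs (adjusted p = 2.3e-10), -2.44 against FIPs (5.0e-10) and -1.92 against SMCs (2.4e-08), all 3 called under each alternative tried. SMCs were below APCs by -0.65 (adjusted p = 0.0059) and below FIPs by -0.51 (0.0252), without overlap, and APCs minus FIPs was 0.14 (0.598).

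Glial markers were also read in these libraries. Sox10, which defines Schwann cells, was 44.2, 8.54, 14.9 and 52.1 in SMCs and at most 3.69 in any other library. Gfra3 was 46.3, 11.7, 25.6 and 59.3 in SMCs and 0 in all APCs libraries. The summed list of 12 glial markers was 285 to 396 in APCs, 1388 to 1458 in FIPs, 1825 to 2196 in SMCs and 4122 to 4264 in MLCs, where Mbp, also expressed outside myelin as Golli forms, made up 3242 to 3376. Of the 12, 7 passed the filter on low values. Mature adipocytes also contain S100b. A list of 8 of their markers summed to 2059 to 2576 in APCs, 286 to 690 in SMCs, 235 to 267 in MLCs and 145 to 185 in FIPs. In APCs, Plin1 made up 1411 to 1867 of that sum and Lep at most 3.46. The part of other cells in the S100b values was not tested. The genes nearest to S100b in profile were Pcdh18, a protocadherin (0.22), Tpst1, a tyrosine sulfotransferase (0.24), and Tmem45a (0.25). All 3 were lowest in MLCs, as their choice by nearness to S100b makes likely, and Pcdh18 averaged 399 there against 1669 to 2436 elsewhere.

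For the other members the nearest profiles lay closer than for S100a4 and S100b. S100a10 was nearest to Tmsb10, an actin-sequestering thymosin (0.10), S100a11 and S100a16 both to Nagk, N-acetylglucosamine kinase (0.12 and 0.096), S100a1 to Tiparp (0.11), S100a13 to Chp1, an EF-hand regulator of sodium-proton exchange (0.13), and S100a6 to Nbl1, a secreted BMP antagonist (0.17). Anxa5, itself a calcium-dependent phospholipid binder, was the second nearest to S100a16 at 0.12. Around their own means, S100a4 and S100b varied by 1.96 and 1.05 (root mean square, log2), and the other members by 0.31 to 0.60.

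Of the other 10 S100 genes in the table, 2 passed the filter. S100a7a, of the psoriasin group, measured 68.4, 64.0, 96.1 and 43.9 in SMCs, 22.9 to 33.3 in FIPs, 16.1 to 32.9 in APCs and 16.1 to 20.7 in MLCs, and was called higher in SMCs than in APCs by 1.56 (adjusted p = 4.8e-05), FIPs by 1.102 (0.0014) and MLCs by 1.75 in size (7.2e-06). S100a14, which lies between S100a13 and S100a16, was 11.1 to 15.2 in MLCs and at most 10.5 elsewhere, and passed the filter through MLCs alone, so it had to differ. S100a8 and S100a9, the neutrophil calprotectin pair, stayed at or under 5.26 and 1.91, and the 9 neutrophil markers summed to at most 71.6 in any library. S100a3 reached 12.8 and S100g 6.92 at most, S100a2 and S100a5 stayed under 2, and S100z and S100a7l2 had no reads in the 16 libraries, which at these depths does not show that they are absent.

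A list of 20 known S100 partners and receptors had 19 tested genes. Called in each pair, first population higher and lower, were 0 and 4 (APCs against FIPs), 4 and 1 (MLCs against APCs), 3 and 1 (MLCs against FIPs), 3 and 0 (SMCs against APCs), 1 and 3 (SMCs against FIPs) and 4 and 1 (MLCs against SMCs). The shares of all tested genes called in these pairs were 10.4, 29.6, 31.1, 17.2, 17.9 and 27.9%. The list's medians were -0.23, 0.47, 0.28, 0.03, -0.21 and 0.42, where those over all tested genes were -0.01, 0.02, 0.02, 0.02, 0.0057 and 0.04. Plat, tissue plasminogen activator, which binds the S100a10 and annexin A2 complex, was highest in FIPs, at 9448 to 10976 against 3098 to 5105 elsewhere, and was called lower in APCs (-1.38, adjusted p = 2.4e-11), MLCs (-1.07, 1.6e-10) and SMCs (-1.52, 3.1e-12). Ager, the receptor RAGE that extracellular S100b and S100a4 engage, was 37.9 to 62.0 in MLCs and 73.5 to 216 elsewhere, and MLCs were below APCs by -1.43 (adjusted p = 3.2e-06). Tlr4, which S100 proteins can also engage, was 473 to 638 in FIPs and 194 to 329 elsewhere.

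Among 10 tested annexins of 12, the first population was called higher for 0 and lower for 4 between APCs and FIPs, with a median of -0.73; 10.4% of all tested genes were called in that pair. MLCs against APCs gave 4 higher and 0 lower (median 0.94), MLCs against FIPs 2 and 0 (-0.29), SMCs against APCs 2 and 0 (0.28), SMCs against FIPs 2 and 3 (-0.45) and MLCs against SMCs 4 and 0 (0.62), with 29.6, 31.1, 17.2, 17.9 and 27.9% of all tested genes called. The medians over all tested genes, given above, lay between -0.01 and 0.04. Anxa3 was 3471 to 3694 in FIPs and 338 to 584 in APCs, Anxa4 1949 to 2203 and 735 to 809, and both were called in that pair (-3.18, adjusted p = 1.1e-13, and -1.40, 1.6e-13). Anxa8 was 1021 to 1336 in MLCs against at most 175 in any other library. The median of MLCs against FIPs lay below 0 although both called annexins, Anxa8 and Anxa11, were higher in MLCs.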

How the data were processed

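Libraries were built from total RNA of freshly sorted cells with the NEBNext Ultra II RNA kit named in the labels' protocols. The table the authors deposited holds a normalised signal, gene read counts scaled by a single factor for each library. The software listed in the submitters' processing notes is HISAT2 2.0.1, featureCounts 1.4.6, Trim Galore 0.4.1 and DESeq2 1.6.3, with builds GRCm38 and mm10. For strand, annotation and shared reads the settings are not given in the sources used. The columns headed SMLCs were matched to the SMCs titles by number. Dividing by each column's smallest step gave whole reads (tolerance 0.01), and hence the depth: 9.20 to 27.5 M reads, median 21.6 M. Rows without a symbol (1275) held 0.0812 to 0.135% of reads.

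Genes with a value of at least 10 in at least 4 libraries were tested with limma 3.58.1 (R 4.3.3, trend) on log2(value + 1), all 16 libraries in 1 model, Benjamini-Hochberg over 15024 genes in each pair. The method was tested on simulated data. Ratios to a partner were compared by exact two-sided permutation over libraries, adjusted over 24 tests. edgeR 4.0.16 on recovered reads, an alternative chosen after seeing the data, left out FIPs replicate 1 and APCs replicate 2, whose steps lie near 1. Other alternatives were pseudocounts of 0.1 and 8, other filters, equal totals, quantile and TMM scaling, models of 2 populations, a replicate block and leaving out libraries. Exonic lengths are unions of GENCODE basic protein-coding transcripts, which may differ from the annotation used for counting. The members and lists were chosen with earlier results of these data known. Named genes are all members, the other S100 genes in the table, the ratio partners, up to 4 leading called genes per list and pair, and the 3 nearest profiles of each member. A gene that this rule names in the list of other EF-hand proteins is not reported here.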

Additional observations from a re-analysis of the deposited data

Results flagged for a closer look

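S100a4 measured 507 normalised counts in APCs replicate 4, against 20.1 to 29.6 in the other 3 APCs libraries. It was flagged because its gap to the nearest of the others took 0.981 of the group's whole range, above Dixon's 95% critical value for 4 values. The log2 ratio of S100a4 to Myh9 in the same library was -3.19, against -7.92 to -7.42 in the others, a gap of 0.893 of the range. Of 48 groups of 4 values examined, these 2 were flagged, and chance alone flags about 1 in 20, or 2.4 here; both flags come from the same measurement of S100a4.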

How the results depend on the processing

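Over the alternatives tried, the count of called members kept within 1.5 times its value for MLCs against APCs, MLCs against FIPs and SMCs against APCs. Between APCs and FIPs the 1 called member became 0 with equal totals, quantile normalization, TMM factors and edgeR's quasi-likelihood test on recovered reads, and 3 without APCs replicate 4 and SMCs replicate 3 together; leaving out single libraries gave 0 to 3, with 3 without APCs replicate 4, 2 without FIPs replicate 2 and 0 without APCs replicate 1 or 2 or FIPs replicate 3 or 4. SMCs against FIPs went from 1 to 2 without SMCs replicate 3, alone (1 to 2 over single libraries) or with APCs replicate 4. MLCs against SMCs went from 1 to 2 with only these 2 populations in the model and without APCs replicate 4 (1 to 2 over single libraries). The cause was not tested.

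Differences that changed sign were small, except for S100a4. S100a4 between APCs and FIPs was -0.34 without APCs replicate 4, also with SMCs replicate 3 left out (-0.34 to 1.19 over omissions). S100a10 between MLCs and FIPs was 0.30 with equal totals, 0.18 with quantile normalization and 0.017 without MLCs replicate 1 (-0.068 to 0.017). For SMCs against APCs, S100a10 was -0.058 with edgeR and -0.030 to 0.16 over omissions, below 0 without APCs replicate 1 or 2 or SMCs replicate 2. In the same pair S100a11 was -0.011 with equal totals, -0.0076 with TMM factors, -0.061 with edgeR and -0.035 to 0.087 over omissions, below 0 without APCs replicate 1 or 2 or SMCs replicate 1. S100a16 in that pair was -0.15 to 0.033, above 0 without APCs replicate 4 and SMCs replicate 3. S100a1 between SMCs and FIPs was 0.13 with equal totals. S100a13 between MLCs and SMCs was 0.041 with equal totals and -0.21 to 0.0071 over omissions, above 0 without SMCs replicate 3.

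Equal totals moved the median of all genes by 0.24, 0.33 and 0.22 for APCs, MLCs and SMCs against FIPs and by 0.11 for MLCs against SMCs. The share of calls higher in the first population moved with it from 50.1 to 67.5% for APCs against FIPs and from 59.8 to 71.4% for MLCs against FIPs. With quantile normalization it moved from 78.0 to 55.5% for SMCs against APCs and from 74.3 to 54.4% for SMCs against FIPs.

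Same-numbered libraries of different populations had correlated deviations of -0.0338 to 0.171 over 24 pairs, 6 of them over 0.1. The numbers were not taken as pairs, since no label ties them and not every correlation exceeded 0.1; that 17 correlated best with their own number is a hint of a shared effect from the data, not the design. With the replicate block, the called members were 1, 3, 3, 2, 1 and 1 in the 6 pairs, as without it, and a ratio permuted within numbered pairs cannot go below an exact permutation p of 0.125. Depth limits S100b in MLCs, at 21 to 30 reads, and S100a4 in FIPs, at 28 to 33.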

Other observations

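Other EF-hand proteins, which share the calcium-binding fold of the S100 family, were counted in the same 6 pairs. Of 19 tested genes on a list of 23, 0 were called higher and 2 lower between APCs and FIPs, 3 and 1 between MLCs and APCs, 3 and 2 between MLCs and FIPs, 1 and 0 between SMCs and APCs, 0 and 2 between SMCs and FIPs, and 2 and 2 between MLCs and SMCs. In these pairs 10.4, 29.6, 31.1, 17.2, 17.9 and 27.9% of all tested genes were called. Efhd1, a mitochondrial calcium sensor, measured 1922 to 2417 in FIPs, 66.8 to 91.6 in APCs, 31.7 to 52.3 in SMCs and 0.88 to 7.38 in MLCs, and was lower in APCs than in FIPs by -4.74 on the log2 scale (SE 0.30; limma adjusted p = 2.0e-10). Myl9, a regulatory myosin light chain of smooth muscle, measured 2052 to 2301 in SMCs, and 541 to 1289 elsewhere. Chp1 was called lower in MLCs than in FIPs (-1.16, limma adjusted p = 3.9e-09), at 767 to 856 against 1776 to 1948.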
